A study of Mus musculus with 8 samples.

Results

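Complex I, the NADH:ubiquinone oxidoreductase of the inner mitochondrial membrane, is built from subunits encoded in 2 genomes, and the nuclear genes are described here in mouse brown adipose tissue. The members were all protein-coding rows of the deposited table whose symbol joins Nduf, one of the subunit letters (a, ab, b, c, s or v) and a number, with Ndufa4 left out because its product is counted as a subunit of complex IV. This gave 36 genes of the 54532 rows. Ndufb1 is not among the rows under that symbol, so 1 subunit of the distal membrane arm is not analysed here. Members were sorted into the 4 structural modules of the enzyme, with 8 genes in the N module, 8 in the Q module, 9 in the proximal and 11 in the distal membrane arm.

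RNA was sequenced from the brown fat of 4 wild-type mice (WT) and 4 mice labelled CLCF1-ATG (TG), numbered 1, 2, 3 and 5 in each group. CLCF1 belongs to the interleukin-6 family of cytokines. Strain, age, sex, treatment and the promoter that drives the transgene were not given in the sources used here, and the labels do not spell out ATG. The series title concerns heat production and mitochondrial biogenesis, and the comparison of the genotypes here asked where the transcripts of the largest respiratory complex stood. The table gives FPKM, in which fragments are divided by the length of the gene and by a library divisor, so levels are per length. Each log2 change below is the TG mean minus the WT mean of log2(FPKM + 1).

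Complex I takes electrons from NADH and passes them to ubiquinone (coenzyme Q), and it pumps protons across the membrane as it does so. The N module oxidises NADH, the Q module reduces ubiquinone, and the membrane arm carries the proton pumps, whose cores are made inside the mitochondrion. Around the catalytic core sit accessory subunits that are needed for assembly and stability. Brown adipocytes are packed with mitochondria and burn NADH at a high rate when they make heat, because UCP1 lets the proton gradient run down without making ATP.

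The libraries held 13734231 to 15751302 reads in WT and 18494022 to 20183840 in TG, as recovered from the FPKM values. Clcf1 stood at 2.15 ± 1.28 FPKM (SD, n = 4) in the WT and at 84.5 ± 4.75 in the TG mice, with an exact permutation p of 0.0286 (two-sided, 70 possible assignments), which is the lowest value a design of 4 and 4 can reach. All 10 brown adipocyte markers were detected, with a summed level of 5913 to 8312 FPKM in WT and 5740 to 8076 in TG, and 4 of them were lower, 4 higher and 2 not called. The similar sums hold opposite moves. Lower were the thermogenic uncoupler gene Ucp1 (5.83% of WT), Cidea (5.48%), Dio2 (3.22%) and Kcnk3 (16.9%), while the general fat cell genes Adipoq (287% of WT), Plin1 (238%), Lipe (179%) and Fabp4 (163%) were higher. Not called were Elovl3 (log2 change 0.62, adjusted p = 0.519) and Pparg (-0.01, adjusted p = 0.947), so the split leaves out 2 of the 10. The call of Fabp4 was lost without TG2 (adjusted p = 0.0607) and with no filter (adjusted p = 0.188). Elovl3 was called higher without WT1 (1.43, adjusted p = 0.0145). Pparg was called higher with scaling by all recovered reads (0.41, adjusted p = 0.0457) and with voom (0.42, adjusted p = 0.0366). Of the other cell types, all 6 endothelial markers were lower (summed FPKM 52.0 to 124.6 in WT, 12.5 to 26.04 in TG), as were the 5 tested of 6 erythroid markers (5111 to 12890 in WT, 1530 to 1901 in TG) and the 3 tested of 8 neutrophil markers (12.7 to 384 in WT, 3.95 to 25.8 in TG), of which Retnlg was under the 0.5 FPKM filter in every TG mouse but TG1. Of 8 macrophage markers 4 were higher (224 to 375 FPKM in WT, 379 to 460 in TG). Among these Adgre1 overlapped between the groups, while C1qa, C1qb, C1qc and Cd68, which leaned lower (-0.39), were not called. The neutrophil genes S100a8 and S100a9 overlapped too. Several of these calls depended on the setting. The highest adjusted p over all settings was 0.0795 for Adgre1, 0.0755 for Csf1r, 0.103 for Lyz2 and 0.0706 for the endothelial Emcn. For Retnlg, S100a8 and S100a9 it was 0.0546, 0.0654 and 0.0682. In some settings C1qa, C1qb and C1qc were called higher and Cd68 lower. For all these lists, 21.8% of all genes tested were called lower and 22.3% higher. None of the 8 tested of 10 skeletal muscle markers was called in limma. Their sum ran from 12.4 to 3534 FPKM in WT and from 192.5 to 1950 in TG, with the highest values in WT2 and TG5, and Tnnc2 was at 0 in all 8 libraries. Mitochondrial transcripts took 24.1% to 37.5% of the reads in WT and 6.09% to 7.34% in TG. The part of these differences in the results below was not tested. In bulk tissue, fewer cells of a type and less RNA per cell cannot be told apart.

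Promoter sequence was available for 32 of the 36 genes, from RefSeq's GRCm38.p6 table, which covers 250 bases before to 50 bases after each gene's start. The promoters of Ndufa2, Ndufb9 and Ndufs1 were among the 4 not searched. The windows were searched on both strands for the core letters bound by factors known for genes of respiration. The NRF1 letters, GCGCA and GCGC with any 1 base between, were found in 7 of 32 (21.9%), against 5.19% of all 27025 genes in the table and 11.9% of the tested genes. The YY1 letters AAGATGGCG were found in 5 of 32 (15.6%), against 1.64% of all genes and 3.77% of the tested genes. The estrogen-related receptor (ERR) letters AAGGTCA were found in 3 (9.38%, against 5.38% of all and 3.97% of the tested genes), and the ETS letters CCGGAAG in 4 (12.5%, against 9.93% and 20.6%). The GC-box letters GGGCGG were found in 15 (46.9%, against 38.2% and 69.0%) and the NF-Y letters CCAAT in 10 (31.3%, against 41.1% and 42.4%). A match describes the letters in these windows and does not show binding.

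All 5 YY1 matches lay 23 to 36 bases after the start, on the gene's own strand, and none lay in the 250 bases before a start. They are shown because Ndufs6, Ndufs7 and Ndufc1 were among the members with the largest falls, and Ndufs4 among those with the smaller ones. The YY1 letters are in capitals and each line holds 30 bases, 5′ to 3′ on the gene's strand, in the order Ndufs6 (chr13:73328433-73328462, minus), Ndufs7 (chr10:80249463-80249492, plus), Ndufc1 (chr3:51408914-51408943, minus), Ndufa9 (chr6:126849096-126849125, minus) and Ndufs4 (chr13:114388045-114388074, minus) of GRCm38.p6.
Ndufs6: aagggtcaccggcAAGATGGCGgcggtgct
Ndufs7: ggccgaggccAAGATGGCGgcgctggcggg
Ndufc1: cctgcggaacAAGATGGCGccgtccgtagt
Ndufa9: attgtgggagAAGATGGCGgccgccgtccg
Ndufs4: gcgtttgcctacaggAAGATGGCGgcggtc

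The next sequences are the upstream stretches without an annotated exon of Ndufs5 and Ndufb4, which hold NRF1 letters, of Ndufb2, which holds ERR letters, and of Ndufc2, the member with the smallest fall, which holds none of the 4 motifs marked. Capitals mark the NRF1 and ERR letters on either strand. They lie at chr4:123718203-123718436 (minus strand), chr16:37654454-37654618 (minus), chr6:39592315-39592564 (plus) and chr7:97399753-97400002 (plus) of GRCm38.p6. Ndufs5 carried both motifs, 1 of each, within 234 bases.
Ndufs5: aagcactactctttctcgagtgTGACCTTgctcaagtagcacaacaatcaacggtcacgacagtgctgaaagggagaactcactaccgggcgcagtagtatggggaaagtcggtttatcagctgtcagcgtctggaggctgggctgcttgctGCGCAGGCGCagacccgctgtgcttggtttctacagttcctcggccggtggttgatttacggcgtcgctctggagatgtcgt
Ndufb4: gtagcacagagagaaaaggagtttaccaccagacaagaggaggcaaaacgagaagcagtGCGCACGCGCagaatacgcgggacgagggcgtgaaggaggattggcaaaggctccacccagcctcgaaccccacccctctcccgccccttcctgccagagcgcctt
Ndufb2: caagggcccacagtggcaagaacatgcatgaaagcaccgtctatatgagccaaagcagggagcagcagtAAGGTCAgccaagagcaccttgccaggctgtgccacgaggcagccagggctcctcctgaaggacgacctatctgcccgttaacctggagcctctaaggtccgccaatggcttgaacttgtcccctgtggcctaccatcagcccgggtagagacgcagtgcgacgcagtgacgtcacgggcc
Ndufc2: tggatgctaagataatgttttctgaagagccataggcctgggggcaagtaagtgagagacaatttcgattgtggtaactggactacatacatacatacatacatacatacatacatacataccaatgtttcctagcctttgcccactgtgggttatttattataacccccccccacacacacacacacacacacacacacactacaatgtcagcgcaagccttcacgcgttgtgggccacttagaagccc

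The 7 genes with NRF1 letters were Ndufa5, Ndufa6, Ndufa8, Ndufa11, Ndufb4, Ndufs5 and Ndufs6. Their median log2 change was -1.85, against -1.74 for the 25 without. For the 5 with YY1 letters the median was -2.15, against -1.74 for the rest. Ndufb4 held 3 NRF1 matches and an ERR match and was among the least lowered genes, while Ndufs6 held 1 NRF1 match and fell most, so genes with the same letters stood at both ends of the range.

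Every one of the 36 nuclear subunit genes passed the low-value filter, and every one was lower in TG. All 36 were called by limma at an adjusted p of 0.05, and in all 36 the lowest WT mouse stood above the highest TG mouse. Among the 12508 genes tested, 21.8% were called lower, 22.3% higher and 44.1% in either direction, and 20.5% had all WT above all TG. The median log2 change of the members was -1.75, with an interquartile range of -2.002 to -1.50, against a median of 0.01 (-0.37 to 0.34) for all genes tested. The TG level was 15.5% to 51.8% of the WT level, with a median of 28.7%. Adjusted p ran from 2.02e-06 to 0.00591, and the SE of the log2 change from 0.11 to 0.36.

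The changes lay close together. Of the 36 members, 28 were within 0.5 of their median on the log2 scale, 35 had fallen at least 2-fold, 24 at least 3-fold and 9 at least 4-fold. The plot of FPKM by mouse shows the gap between the genotypes in each gene. Genes high in WT and short genes were lowered more often than others in these libraries, so 2 wider backgrounds are given. Of 498 other genes with at least 100 FPKM in WT 55.8% were called lower, with a median of -0.57. This set was chosen by the WT level, which leaves out genes high in TG alone, so part of its share is built in. Of 2841 other genes of at most 2000 bases 26.6% were called lower, with a median of -0.13. By comparison 22 members were at most 2000 bases long.

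**Figure D1:**
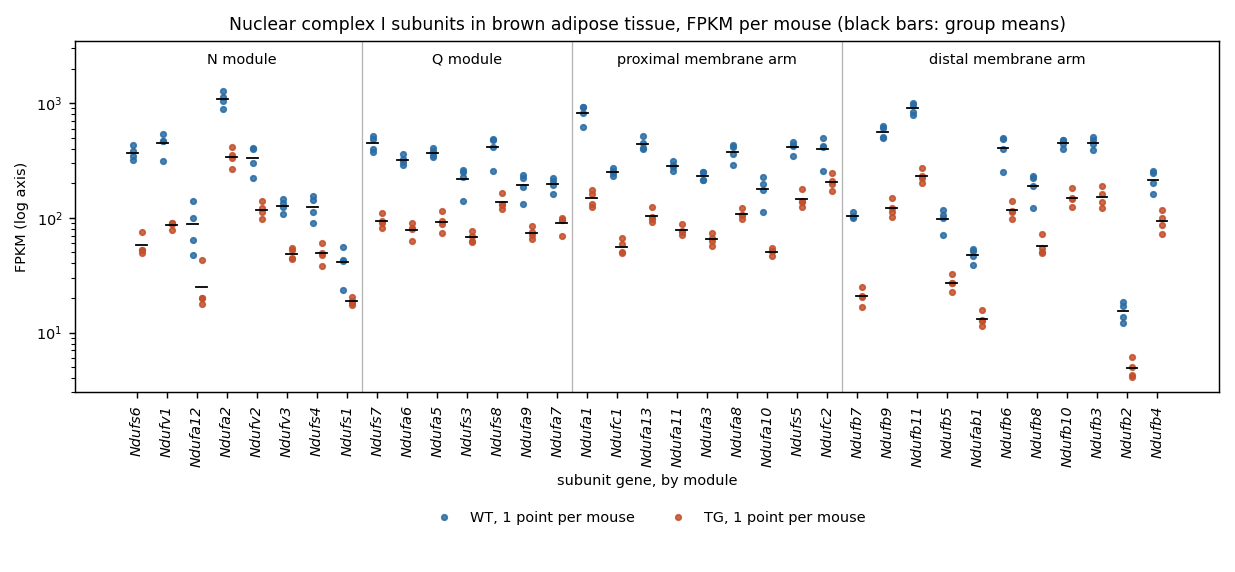
FPKM (log axis) of 35 of the 36 nuclear complex I subunit genes in each mouse, grouped by module; points are mice (blue WT, red TG, 4 each) and black bars are group means. In every gene the 4 TG points lie below the 4 WT points, and mean levels span 15.3 to 1089 FPKM in WT and 4.86 to 342 in TG.

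The N module oxidises NADH with a bound flavin and leads the electrons along iron-sulfur clusters. Its 8 genes all fell, with a median log2 change of -1.57 and the widest range of the modules, from -2.68 to -1.04. Ndufv1, which binds NADH and the flavin, measured 471, 471, 534 and 312 FPKM in WT mice 1, 2, 3 and 5 and 90.4, 88.9, 89.6 and 77.9 in TG mice 1, 2, 3 and 5. The TG mice were close to each other, and WT5 was the lowest WT mouse. Ndufv1 (ENSMUSG00000037916, chr19:4007497-4012806, mm10) fell by 2.33 on the log2 scale (SE 0.17, adjusted p = 7.88e-06), to 19.4% of WT.

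Ndufv2, a core subunit with an iron-sulfur cluster beside the flavin, measured 408, 303, 395 and 223 FPKM in WT and 96.8, 112, 139 and 121 in TG. It fell by 1.47 (SE 0.20, adjusted p = 0.000373), less than its partner Ndufv1. Ndufs1, the largest core subunit and the carrier of several iron-sulfur clusters, measured 43.1, 42.4, 55.9 and 23.6 FPKM in WT and 18.1, 19.0, 20.4 and 17.4 in TG. WT5 came close to the highest TG mouse, and the groups did not overlap. Ndufs1 (chr1:63143596-63176833) had the smallest change of the module, -1.04 (SE 0.22, adjusted p = 0.00427), and its change was -1.28 without WT5.

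Ndufs6 is an accessory subunit that binds zinc. It measured 381, 321, 347 and 436 FPKM in WT and 49.8, 52.8, 75.01 and 51.9 in TG, with the highest WT value in WT5 and the highest TG value in TG3. Ndufs6 (ENSMUSG00000021606, chr13:73319838-73328542, minus strand) went from 371 ± 49.5 to 57.4 ± 11.8 FPKM (SD, n = 4 each), 15.5% of WT. Its log2 change of -2.68 (SE 0.16, adjusted p = 2.87e-06) was the largest of the 36 members.

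Ndufa12 was the least even member. It measured 98.8, 140, 64.3 and 47.4 FPKM in WT and 43.0, 19.9, 20.1 and 17.7 in TG, and TG1 stood just under WT5. Its change was -1.74 with the largest SE of the members (0.36, adjusted p = 0.0037). Ndufa12 is related in sequence to the assembly factor Ndufaf2, which it replaces late in assembly. Ndufa2, a small subunit with a thioredoxin-like fold, had the highest mean of all members, 1089 ± 161 FPKM in WT and 342 ± 61.3 in TG (-1.67). Ndufv3 changed by -1.37 and Ndufs4, whose loss in mice gives a Leigh-like disease, by -1.33.

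The Q module carries the last iron-sulfur cluster and the pocket in which ubiquinone is reduced. Its 8 genes all fell, with a median log2 change of -1.70 and a range of -2.23 to -1.13. Ndufs7, which holds the last cluster, measured 402, 485, 520 and 375 FPKM in WT and 80.9, 90.1, 111 and 94.4 in TG. The groups were far apart, with no TG mouse above 111 FPKM. Ndufs7 (ENSMUSG00000020153, chr10:80249121-80256794, plus strand) changed most in the module, by -2.23 (SE 0.15, adjusted p = 5.15e-06), and stood at 21.1% of WT.

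Ndufs3, a core subunit without a cluster, measured 249, 225, 260 and 142 FPKM in WT and 61.7, 69.4, 76.6 and 63.4 in TG (-1.64, SE 0.19, adjusted p = 0.000125). Ndufs8, a core iron-sulfur subunit, measured 491, 418, 474 and 258 FPKM in WT and 119, 130, 166 and 133 in TG (-1.55, SE 0.21, adjusted p = 0.000317). In both genes WT5 was well below the other WT mice and still above the TG mice. Without WT5 the changes were -1.84 for Ndufs3 and -1.75 for Ndufs8.

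Among the accessory genes of the Q module, Ndufa6, an LYR-motif protein that binds an acyl carrier protein, changed by -2.02, Ndufa5 by -1.998 and Ndufa9, which has a nucleotide-binding fold, by -1.35. Ndufa7 changed least. It measured 224, 195, 210 and 161 FPKM in WT and 70.0, 95.0, 99.96 and 95.0 in TG, with TG1 below its group. Ndufa7 (chr17:33824591-33838316, plus strand) changed by -1.13 (SE 0.15, adjusted p = 0.000304), to 45.6% of WT.

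All 7 core genes of the nuclear set belong to the N and Q modules. Their median change was -1.64, with Ndufv1 and Ndufs7 at one end and Ndufs1 at the other, and the 29 accessory genes had a median of -1.77. The ranges of both classes overlapped over most of their length.

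The proximal membrane arm joins the Q module to the membrane. Its 9 genes, all accessory, fell with a median of -1.83 and a range from -2.47 to -0.92, which holds both the second largest and the smallest change of the 36. Ndufa1, a small X-linked subunit with a single membrane helix, measured 931, 618, 822 and 932 FPKM in WT and 123, 162, 174 and 131 in TG. WT2 was its lowest WT mouse, and even there the level was more than 3 times that of any TG mouse. Ndufa1 (ENSMUSG00000016427, chrX:37187588-37191163, minus strand) fell by 2.47 on the log2 scale (SE 0.17, adjusted p = 7.48e-06), to 17.9% of WT.

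Ndufc2 was the member with the smallest change. It measured 414, 419, 496 and 254 FPKM in WT and 170, 208, 246 and 196 in TG, so WT5 lay just above TG3. Ndufc2 (ENSMUSG00000030647, chr7:97400003-97407802, plus strand) fell to 51.8% of WT (-0.92, SE 0.21, adjusted p = 0.00591). Its call was lost with quantile normalisation (-0.36, adjusted p = 0.0879), when FPKM were replaced by reads over all recovered reads (-0.49, adjusted p = 0.0781) and with limma voom on the recovered reads (-0.49, adjusted p = 0.0564). Because the other genes fell more, Ndufc2 moved from 14th place by mean FPKM in WT to 3rd in TG.

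Between these ends lay Ndufc1 (-2.15), Ndufa13, also known as GRIM-19 (-2.08), Ndufa11, a membrane subunit that contacts complex III in supercomplexes (-1.85), Ndufa3 (-1.83), Ndufa8 (-1.78), Ndufa10, which has a nucleoside kinase fold (-1.74), and Ndufs5 (-1.51). Their adjusted p ran from 2.5e-06 for Ndufc1 to 0.000107 for Ndufa10. Ndufc1 went from 251 ± 16.3 to 56.1 ± 8.02 FPKM and Ndufa11 from 283 ± 23.7 to 77.9 ± 7.29 (SD, n = 4 each). Ndufa13 shares 8379 bases of its span with Yjefn3 on the same strand, which went from 19.5 to 3.59 FPKM. Reads of the pair may be split between them or left uncounted. The same holds for 3 genes of the distal arm. Ndufb8 shares 4260 bases with Gm20538, Ndufb2 shares 4022 with Gm42420 and Ndufb9 shares 3604 with Gm49356. Those partners had mean levels of at most 0.509 FPKM.

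The distal membrane arm holds the outermost proton pumps, and its nuclear genes are accessory subunits. All 11 fell, with a median of -1.77 and the narrowest range of the modules by SD (0.32), from -2.28 to -1.19. Ndufb7, one of the twin CX9C proteins that fold in the intermembrane space, measured 104, 98.8, 102 and 112 FPKM in WT and 16.9, 20.9, 25.1 and 20.3 in TG. The WT mice were close to each other, and so were the TG mice. Ndufb7 (ENSMUSG00000033938, chr8:83566671-83571626, plus strand) fell by 2.28 on the log2 scale (SE 0.12), to 19.9% of WT, with the lowest adjusted p of the members (2.02e-06).

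Ndufb4 had the smallest change of the arm. It measured 255, 203, 244 and 161 FPKM in WT and 72.7, 87.2, 117 and 99.9 in TG, with WT5 lowest in WT and TG3 highest in TG. Ndufb4 (chr16:37647170-37654453, minus strand) changed by -1.19 (SE 0.19, adjusted p = 0.000808), to 43.7% of WT.

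The other genes of the arm were Ndufb9, a second LYR-motif protein (-2.21), the X-linked Ndufb11 (-1.95), Ndufb5 (-1.80), Ndufab1, the mitochondrial acyl carrier protein, which also serves fatty acid synthesis (-1.78), Ndufb6 (-1.77), Ndufb8 (-1.70), Ndufb10 (-1.59), Ndufb3 (-1.58) and Ndufb2 (-1.47). Their adjusted p ran from 6.38e-06 for Ndufb9 to 0.000211 for Ndufb8. Ndufb11 had the second highest mean of the 36 genes in both genotypes, 900 ± 107 FPKM in WT and 232 ± 29.9 in TG. The 4 twin CX9C genes, Ndufa8, Ndufb7, Ndufb10 and Ndufs5, had a median change of -1.68.

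The 4 modules were alike in their medians, which spanned -1.83 to -1.57, and their ranges overlapped. No test was made between modules, since genes are not replicates. Taken mouse by mouse after each gene was set to its own WT mean, the modules' medians in TG were -1.54 ± 0.18 for the N module, -1.70 ± 0.16 for the Q module, -1.82 ± 0.14 for the proximal and -1.76 ± 0.19 for the distal arm (SD over 4 mice). With this centring, chosen after seeing the data, the N module was the least lowered and the proximal arm the most lowered in each of the 4 TG mice. The order depended on the centring. The change of the modules' median log2(FPKM + 1) without it was -1.91 for the N module, -1.87 for the Q module, -1.77 for the proximal and -1.19 for the distal arm, so that the N module was the most lowered, and no order of the modules is drawn from these values. Members lay on 15 chromosomes, and the 2 X-linked genes, Ndufa1 and Ndufb11, were within the range of the others.

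**Figure D2:**
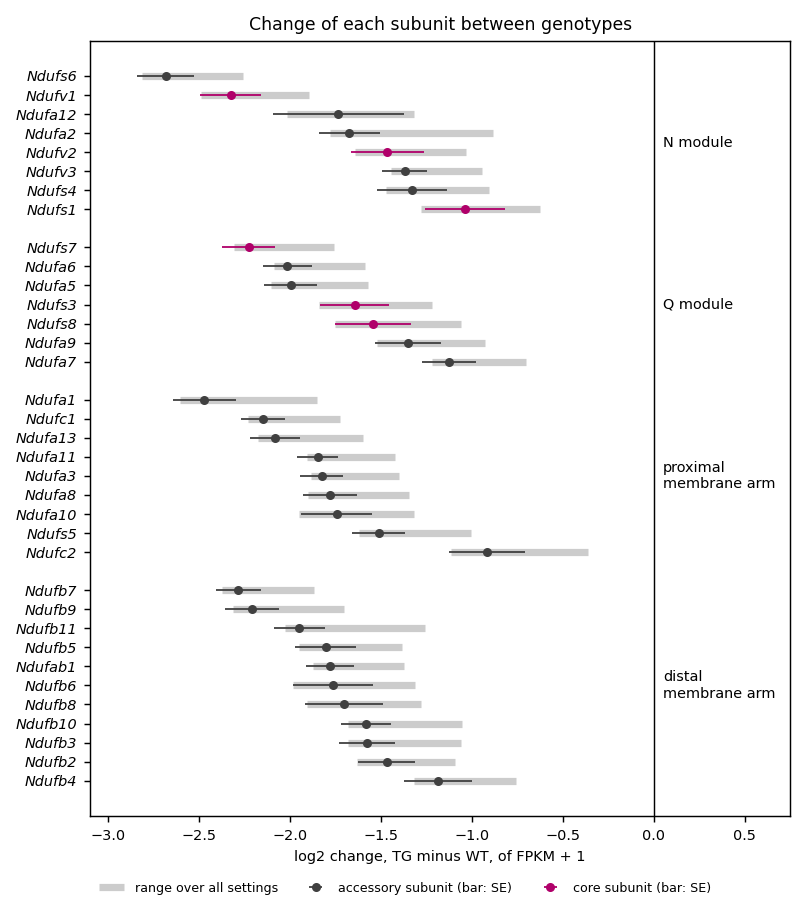
Log2 change of FPKM + 1 (TG minus WT) of 35 of the 36 subunit genes, by module; points are the change with its SE (pink core, dark accessory) and grey bars span all alternative settings. All points and bars lie below 0, from Ndufs6 at -2.68 to Ndufc2 at -0.92, whose grey bar ends at -0.36.

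The members also varied together among mice of the same genotype. WT5 was the lowest WT mouse in 27 of the 36 genes and the highest in 5, and its median deviation from the WT mean was -0.26 on the log2 scale, against -0.02 for all genes tested. In TG, TG3 was the highest mouse in 33 of 36 genes (median deviation 0.25, all genes 0.00), and TG1 the lowest in 27 (-0.19, all genes -0.01). WT5 had the highest mitochondrial read share (37.5%) and the highest endothelial and erythroid sums of the WT mice. The part of these in the WT5 values was not tested. Without WT5 the median change of the members was -1.89, with a range of -2.60 to -1.12 and an SD of 0.36 in place of 0.40.

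WT5 was not low in every member. It was the highest WT mouse for Ndufs6, Ndufa1, Ndufa2, Ndufa13 and Ndufb7, with 436, 932, 1280, 522 and 112 FPKM. Across the 36 genes the change between genotypes and the deviation of WT5 had r = -0.549 (rho = -0.524). Both use the WT5 value, so part of this relation is built in, and it is given as a description across genes that share their libraries.

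**Figure D3:**
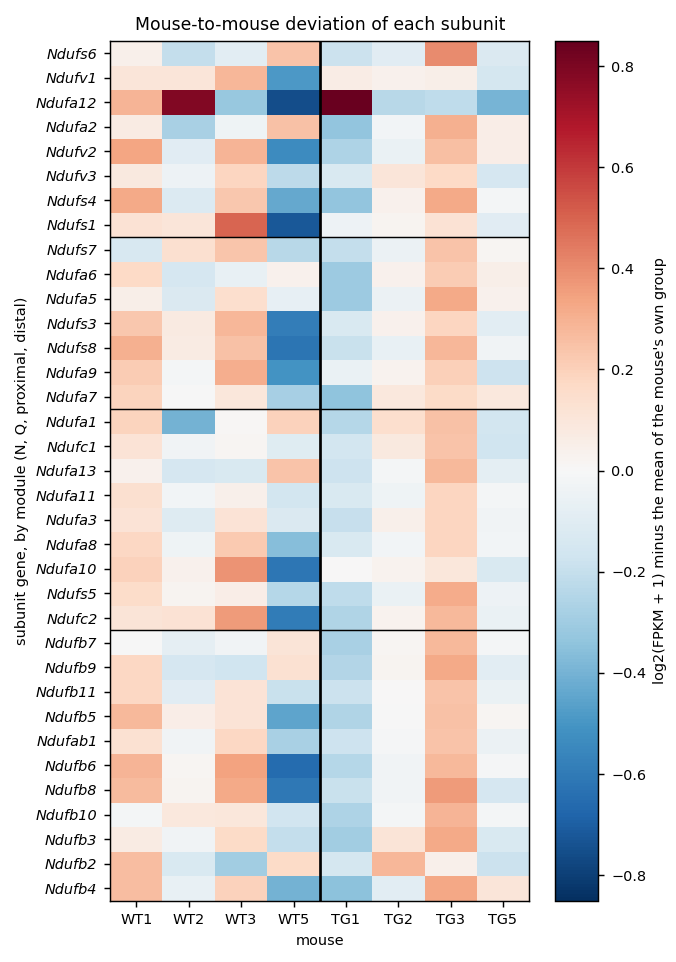
Deviation of 35 of the 36 subunit genes in each mouse from the mean of the mouse's own group, in log2(FPKM + 1), with genes by module in rows and mice in columns; red is above and blue below the group mean. The WT5 column is blue in most rows and the TG3 column red in most rows, with medians of -0.26 and 0.25, and Ndufa12 has the most extreme cells.

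Levels differed far more between genes than between genotypes, and the order was largely kept. WT and TG mean levels had r = 0.952 (rho = 0.91) across the 36 genes on the log2 scale. Both levels of a gene are divided by the same length, so part of this relation is built in. In WT the means ran from 15.3 FPKM for Ndufb2 to 1089 for Ndufa2, a 71.2-fold span with a median of 326. In TG they ran from 4.86 to 342 FPKM with a median of 88.3, and Ndufa2 and Ndufb11 were again first and second. The change had r = -0.341 with the WT level, 0.229 with gene length and -0.383 with the GC content of the transcript, all across 36 genes. The change itself uses the WT level, so part of the relation with that level is built in.

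Much of the order of levels moved with the length given for each gene. FPKM and table length had r = -0.809 across the members. FPKM is divided by that length, so part of this relation is built in. The table length was over 3 times the shortest principal transcript of GENCODE M21 in 9 genes. For Ndufb2 it was 5628 bases against 455, and on the shorter length its WT level would be 189 in place of 15.3 FPKM. For Ndufb7 the lengths were 4522 and 623 bases and the levels 104 and 757 FPKM. On transcript length the span between members narrowed to 9.62-fold, and Ndufc1 (315 bases) moved from 21st to 1st. The TG level as a percentage of WT uses the same length on both sides and is not altered. A log2 change of FPKM + 1 can shift with the length where levels are low, as for Ndufb2.

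The 7 subunits encoded in the mitochondrial genome form the proton pumps and the floor of the ubiquinone channel. All 7 were called lower, against 21.8% of all genes tested, with a median of -2.27, and no TG mouse reached the lowest WT mouse in any of them. mt-Nd1 measured 40169, 24329, 30408 and 43105 FPKM in WT and 5502, 5760, 7002 and 6604 in TG (-2.44, SE 0.24, adjusted p = 4.58e-05). For mt-Nd3 the values were 771, 1210, 874.5 and 4835 FPKM in WT and 78.8, 64.3, 85.9 and 84.1 in TG (-4.16, SE 0.50, adjusted p = 0.000155). WT5 was the highest WT mouse in all 7, in contrast to its low rank in most of the nuclear genes. mt-Nd5 changed least (-1.70). Near-identical nuclear copies of mitochondrial genes make these values uncertain.

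Assembly factors build the complex without being part of it. Of 19 in the table, 14 were called lower, Acad9 was called higher and 4 were not called, against 21.8% lower among all genes tested. The median change was -0.67, against -1.75 for the subunits. Ndufaf8 (-1.40, adjusted p = 9.04e-05), Ecsit (-1.31, adjusted p = 4.31e-05) and Dmac2 (-1.15, adjusted p = 4.4e-05) changed most. Acad9, an acyl-CoA dehydrogenase relative that serves in assembly, measured 2.89, 2.79, 3.25 and 2.27 FPKM in WT and 5.45, 5.51, 4.12 and 4.98 in TG (0.66, adjusted p = 0.00197). The groups did not overlap. With scaling by all recovered reads, and with voom on them, the list gave 5 lower and 3 higher, while 35 of the 36 subunits were still called lower. Single mice decided 3 further calls. Ndufaf3 (-0.52) was not called without WT2, WT3, TG1 or TG3 (adjusted p of 0.0575, 0.0528, 0.0583 and 0.0548). Without WT5, Ndufaf1 (-0.35) and Nubpl (-0.53) were called lower, and Nubpl also without TG3 (-0.52).

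Other enzymes also feed electrons into coenzyme Q. Of 11 such genes 7 were lower, 3 higher and 1, Dhodh, was not called (-0.17), against 21.8% lower and 22.3% higher among all genes tested. The lower genes include Sdha, Sdhb, Sdhc and Sdhd of complex II, which are counted again below with complexes II and III. Gpd2, the mitochondrial glycerol-3-phosphate dehydrogenase, measured 79.4, 55.0, 74.6 and 41.1 FPKM in WT and 12.0, 8.80, 10.6 and 6.79 in TG (-2.57, SE 0.23, adjusted p = 2.48e-05). Sdhb, the iron-sulfur subunit of complex II, changed by -2.16. The 3 higher genes were Chdh (choline dehydrogenase), Prodh (proline dehydrogenase) and Sqor (sulfide:quinone oxidoreductase). Chdh measured 3.04, 2.79, 3.10 and 1.95 FPKM in WT and 10.4, 10.8, 7.04 and 8.27 in TG (1.44, adjusted p = 9.33e-05). Prodh changed by 0.91 (adjusted p = 0.000353) and Sqor by 0.78 (adjusted p = 0.00144), from 23.0 ± 3.92 to 40.1 ± 4.39 FPKM (SD, n = 4 each).

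Among the nuclear genes of the other complexes, 13 of 13 of complexes II and III were lower (median -1.85), 15 of 16 of complex IV (-1.86) and 14 of 18 of complex V (-1.43). Over the 47 genes of complexes II to V, 42 were lower and 5 not called, against 21.8% lower among all genes tested. With scaling by all recovered reads and with voom, 11 genes of complexes II and III, 15 of complex IV and 12 of complex V were lower. Sdha, the flavin subunit of complex II (-0.48 and -0.48), Uqcrc2 of complex III (-0.39 and -0.39), and Atp5c1 and Atp5g2 of complex V lost their calls there, while Atp5g1 (1.08 and 1.34) and Atp5g3 (0.64 and 0.64), which encode the membrane ring subunit of complex V, were called higher. Quantile normalisation ended the same 4 calls and those of Cox8a and Usmg5, and Atp5g3 was called higher (0.69). Atp5g1 (0.73, adjusted p = 0.0627) was called higher with a filter of 5 FPKM (adjusted p = 0.047) and without WT2 (1.06, adjusted p = 0.000373). Atp5c1 (-0.52) was not called without WT1, WT2, WT3, TG1, TG2 or TG5, Atp5g2 (-0.60) without WT1, WT2, WT3 or TG1, and neither was called with no filter. Atp5j was called lower without TG3 (-0.39, adjusted p = 0.0438). The median over all 47 of -1.80 stood beside -1.75 for complex I, and the SD of the changes was 0.91 beside 0.40. The difference in spread was not tested.

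**Figure D4:**
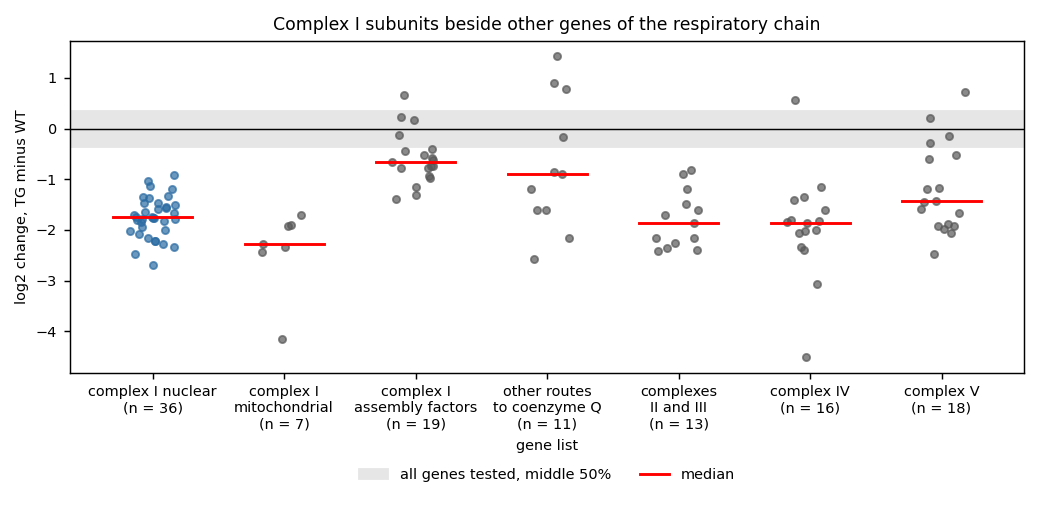
Log2 change (TG minus WT) of each tested gene in the nuclear and mitochondrial complex I lists, the assembly factors, the other routes to coenzyme Q and complexes II to V; points are genes, red lines medians and the grey band the middle 50% of all genes tested. The nuclear subunits cluster around -1.75 with no point above -0.92, while the assembly factors (median -0.67) reach into the grey band. Above the band lie 3 points of the coenzyme Q routes and the assembly factor Acad9 (0.66). So do Cox6a2 of complex IV (0.56) and Atp5g1 of complex V (0.73), neither of which was called. The change of Cox6a2 had an SE of 1.07, and its mean FPKM was lower in TG (60.7% of WT). Its highest values were in WT2 (82.4 FPKM) and TG5 (35.9 FPKM), the mice with the highest skeletal muscle marker sums.

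The 3 relatives left out of the set differed. Ndufa4, the complex IV subunit, measured 1393, 1070, 1316 and 922 FPKM in WT and 255, 305, 415 and 309 in TG (-1.87, adjusted p = 5.5e-05). Its hypoxia-linked paralog Ndufa4l2 was at 5.95 ± 1.93 and 5.70 ± 1.38 FPKM (SD, n = 4 each; -0.03, adjusted p = 0.915). The transcript named Ndufb1-ps, listed as a noncoding RNA at a bidirectional promoter, measured 103, 76.1, 77.9 and 68.0 FPKM in WT and 33.7, 52.1, 46.3 and 39.5 in TG (-0.91, adjusted p = 0.00196).

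Transcripts of 9 factors known to act at promoters of respiratory genes were looked up. Lower were Ppargc1b (-1.67, adjusted p = 9.59e-06), Esrra (-1.17, adjusted p = 2.93e-05) and Ppargc1a (-0.63, adjusted p = 0.0203). Ppargc1b measured 4.79, 3.89, 3.77 and 5.39 FPKM in WT and 0.610, 0.698, 0.889 and 0.612 in TG, with a wide gap between the groups. Its TG mean was 15.7% of WT, a larger fall than the change on the log2(FPKM + 1) scale shows at such levels. Esrra, the founding member of the ERR family, measured 53.0, 46.4, 46.6 and 46.5 FPKM in WT and 20.0, 21.9, 23.3 and 18.2 in TG. Its relative Esrrg measured 1.28 to 2.08 FPKM in WT and 0.302 to 0.423 in TG. It reached the low-value filter of 0.5 FPKM in the 4 WT mice alone, and so falls out when any of them is left out and is given as levels with no test. Sp1 was higher (0.56, adjusted p = 0.00125), and Nrf1 (0.16), Yy1 (0.09), Gabpa (-0.15) and Gabpb1 (-0.28) were not called. Scaling by all recovered reads moved Nrf1 and Yy1 to 0.40 and 0.49, called higher, and ended the call of Ppargc1a (adjusted p = 0.168). Voom (adjusted p = 0.134), no filter (0.0559) and leaving out WT3 (0.0513) or TG1 (0.0577) also ended the call of Ppargc1a. Gabpb1 was called lower without WT1 (-0.40, adjusted p = 0.0354).

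Many subunit genes start beside another gene that runs the opposite way. Within 1000 bases 17 members had such a neighbour, and 13 of these neighbours could be tested. Of those, 2 were lower, 2 higher and 9 not called, with a median of -0.25. Among all genes tested 21.8% were lower and 22.3% higher, so these counts are not read as a result about the neighbours. The first 30 bases of Ndufs6 overlap those of Mrpl36, a mitochondrial ribosome protein gene, whose level was 42.7 ± 8.01 FPKM in WT and 35.2 ± 4.78 in TG (SD; -0.27, adjusted p = 0.186), while Ndufs6 fell most of all members. Ndufs1 overlaps the first bases of Eef1b2, a translation factor gene, which went from 136 ± 7.69 to 124 ± 22.3 FPKM (-0.15, adjusted p = 0.413). Ndufb9 and Tatdn1 start 18 bases apart, and Tatdn1 changed by -0.18 against -2.21 for Ndufb9.

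Wdr4 beside Ndufv3 was one of the lower neighbours (-0.67, adjusted p = 0.00205). The 2 higher neighbours were Vmac beside Ndufa11 (0.55, adjusted p = 0.00658) and Fam126b beside Ndufb3 (0.70, adjusted p = 0.00313). In 7 of the tested pairs the gene bodies overlap, and the strand setting of the counting was not given in the sources used here, so reads of those pairs may be mixed. Of the 6 pairs without overlap 1 neighbour was lower, 1 higher and 4 not called (median -0.30). A difference between members and neighbours was not tested. Scaling by all recovered reads ended the call of Wdr4 (-0.35, adjusted p = 0.0541), and 4 neighbours were then called higher, with Ik beside Ndufa2 (0.43, adjusted p = 0.0034) and Kbtbd4 beside Ndufs3 (0.57, adjusted p = 0.012) among them. Both were also called higher with voom (0.45 and 1.32). Single mice decided several calls. Without WT5, Rnf113a1 (-0.59) and Mrpl47 (-0.47) were called lower, as were Rps28 (-0.55) without WT1 and Rbm10 (-0.37) without WT3. Kbtbd4 was called higher without WT2 (0.46) or TG3 (0.48).

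**Figure D5:**
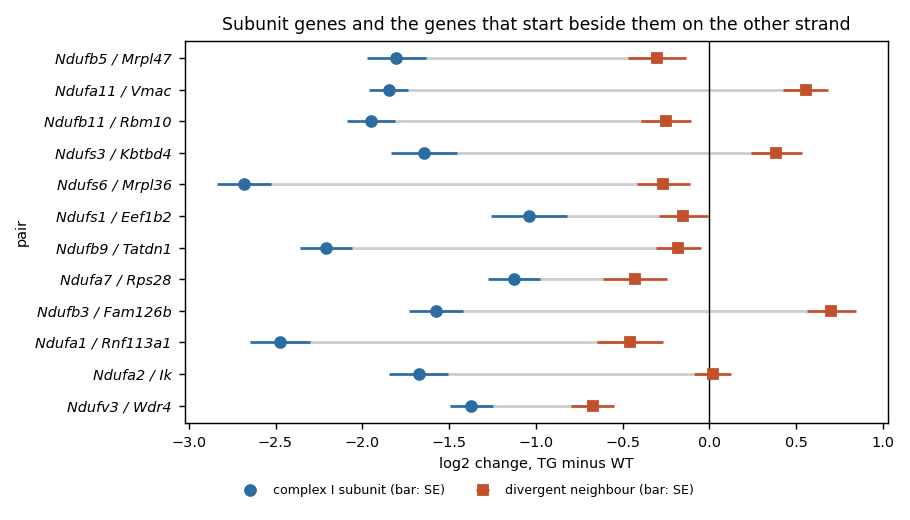
Log2 change (TG minus WT, bars are SE) of 12 subunit genes (blue circles) and of the tested gene that starts within 1000 bases on the other strand (red squares), joined by grey lines. The subunit genes lie between -2.68 and -1.04, while the neighbours drawn lie between -0.67 and 0.70.

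Processed pseudogenes can draw reads from their parent genes. At least 90% identity over 50% of the transcript was found for 9 members, with 1 copy each. The copy Gm12251 held reads equal to 8.61% of those of Ndufs3 in WT and 8.05% in TG. For BC002163 and Ndufs5 the shares were 5.91% and 7.07%. The other 7 copies held under 1%. By these shares the values of Ndufs3 and Ndufs5 are the less certain ones. How reads that match both a gene and its copy were counted was not given in the sources used here. A low share therefore does not show that a member lost no reads.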

How the data were processed

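RNA from frozen brown adipose tissue, taken up in TRIzol, was made into libraries with an Illumina TruSeq kit from 1 ug of total RNA in 8 mice, per the labels' protocols. The submitters' processing notes name HISAT2 2.0.5, featureCounts 1.5.0-p3, bcl2fastq and build mm10; the strand setting was not given in the sources used here. Values were deposited by the authors as FPKM per gene. Multiplied by gene length, the values were whole multiples of 1 read in every library, so reads were recovered. Their sum over the library divisor behind the FPKM was 1.02 to 1.22 in WT libraries and 0.822 to 0.883 in TG libraries, and the origin of that divisor was not given in the sources used here.

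Genotypes were compared with limma 3.58.1 under R 4.3.3 (eBayes with a trend, two-sided) on log2(FPKM + 1), over the 12508 genes that reached 0.5 FPKM in 4 or more libraries. P-values were adjusted by Benjamini-Hochberg over all of these at 0.05. Other settings changed the pseudocount (0.1), the filter (none or 5 FPKM), the scaling, the model (voom on recovered reads) and the libraries used. Copies were sought with blastn 2.17.0. One member is counted in every total and is not reported here by name or drawn by name. The members and lists were chosen with earlier results of these data known. Per-mouse values are given for the core genes named and the largest and smallest change of each module, and from other lists for up to 3 members that changed most or moved against the list. Other genes, such as Ndufa12, the promoter factors and the neighbouring genes, were named after their values were seen. The design text gives 4 mice per group, and no batch is labelled.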

Additional observations from a re-analysis of the deposited data

Results flagged for a closer look

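In 4 of 72 groups of 4 mice (36 genes in both genotypes), 1 mouse lay far from the other 3, by a ratio of gap to range above Dixon's 95% critical value. Chance flags about 1 group in 20. For Ndufs6, TG3 had 75.01 FPKM against 49.8 to 52.8 in the other TG mice. For Ndufv1, TG5 had 77.9 FPKM against 88.9 to 90.4. For Ndufa12, TG1 had 43.0 FPKM against 17.7 to 20.1. For Ndufa7, TG1 had 70.0 FPKM against 95.0 to 99.96. In all 4 genes every WT mouse stood above every TG mouse.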

How the results depend on the processing

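All 36 members stayed below 0, and below the median of all genes, under each setting run, and 35 kept their call in all of them; Ndufc2 lost it under quantile normalisation, scaling by all recovered reads and voom. The members' median was -1.32 with total-read scaling, -1.34 with voom and -1.38 with quantile normalisation, while the first 2 moved the median of all genes to 0.32 and 0.45. Over all genes, 1703 were lower and 1445 higher with a filter of 5 FPKM, 1442 and 5536 with total-read scaling, and 1445 and 5635 with voom. Without WT2 and TG5 together, added after seeing the data, 1827 genes were higher, and all 36 members were called, with adjusted p up to 0.0433. Leaving out each mouse in turn gave 2288 to 2662 lower and 2119 to 2724 higher genes. The median FPKM of a module in each mouse, without centring, changed by -1.91 (N), -1.87 (Q), -1.77 (proximal) and -1.19 (distal), and by -2.11 for the Q module with Ndufa6 and Ndufa7 in the N module and Ndufa9 in the proximal arm. Centring, added after seeing the data, gave -1.54 for the N module and -1.76 for the distal arm; the uncentred value follows whichever gene is at the median in each group. With the replicate block, 2458 genes were lower, 2389 higher and all 36 members lower. Same-numbered mice did not deviate together (r = -0.190, -0.173, 0.037 and -0.238). These values give no sign of pairing by number but cannot exclude it, and the labels do not state it. Depth did not limit the members, since the lowest member mean was 4.86 FPKM. Acad9, Chdh and Ppargc1b are lower-level genes and the log2(FPKM + 1) scale understates their change.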
